A study of Mus musculus with 6 samples.

Results

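Axon guidance ligands and receptors were examined in the deep cerebellar nuclei of trained mice. They were taken as all probe sets annotated to exactly 1 gene, with a symbol that begins with Epha, Ephb, Efna, Efnb, Sema plus a digit, Plxn, Ntn plus a digit, Slit plus a digit, Robo plus a digit or Unc5, or that is Nrp1, Nrp2 or Dcc. This gave 120 of 36701 probe sets, for 67 of 15970 gene symbols. The prefixes also took in 2 symbols outside these families, Unc50, a Golgi protein gene, and Plxna4os1, a transcript from the strand opposite Plxna4. They stayed in the counts over all members and were left out of the subfamilies.

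The tissue was centred on the anterior interpositus, a cerebellar output nucleus, and came from male C57BL/6 mice aged 11 to 18 weeks. Both groups carried eyelid electrodes and were trained for 7 days with a 352 ms tone and a 100 ms periorbital shock. Paired training had the shock begin 252 ms into the tone and end with it, and in unpaired training tone and shock were kept apart in a pseudorandom order. RNA came from 10 to 15 pooled nuclei of the trained side. There were 3 array designs, named A, B and C, and each training group had 1 array per design and no replicate. Whether 1 RNA sample served all 3 arrays of a group is not stated in the labels. No difference given below could be checked against replicates or given a p-value, and the number of arrays limits the precision.

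Guidance proteins steer growing axons and, in the adult brain, act at synapses, on spines and in myelin. Ephrins are membrane-bound ligands of the Eph receptor tyrosine kinases. Semaphorins act through plexins, with the neuropilins as co-receptors for most of the secreted class. Netrins attract axons through Dcc and repel them through the Unc5 receptors, and Slits act through Robo receptors. In the mature deep cerebellar nuclei, Sema3a protein is known as a component of the perineuronal nets around the large neurons.

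The first question was which guidance genes gave signal in these nuclei. A probe set's signal rank is the percentile of its mean log2 signal among all non-control probe sets of its design. Probe sets differ in how strongly they bind, so a rank does not order genes by transcript level. Probe sets at or above the median of their design were kept for comparing the pools, and 71 of the 120 passed, for 47 of the 67 symbols. That is 59.2% of the members, against 53.1% of all probe sets with a single symbol. On design A 30 of 58 member probe sets passed, on design B 25 of 38 and on design C 16 of 24. At the low end, 16 member probe sets lay in both pools at the floor, the 25th percentile of a design's signals, and 10 in 1 pool.

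Plexins, the semaphorin receptors, were kept most fully, with 16 of 18 probe sets and all 9 genes. Their highest rank was 93.7, for Plxna3 on design B, followed by Plxnb1 at 92.0, Plxnb3 on design C at 89.0 and Plxna4 on design B at 85.4. The plexin probe sets of design A ranked lower, between 50.8 and 69.8. Of the semaphorins, 24 of 41 probe sets and 15 of 20 genes were kept. Sema6d, a transmembrane semaphorin, reached 93.1 on design B, and Sema4d, a transmembrane semaphorin made by oligodendrocytes and bound by Plxnb1, reached 92.5 on design C.

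The secreted class 3 semaphorins stood low. No probe set of Sema3a, Sema3b, Sema3e, Sema3f or Sema3g was kept, and their best ranks were 33.7, 44.2, 17.2, 30.5 and 44.1. Sema3c and Sema3d were kept on part of their probe sets, with ranks of 73.1 for Sema3c and of 57.1 and 78.5 for Sema3d. Of the neuropilins, Nrp1, a co-receptor for class 3 semaphorins and for vascular growth factor, had 1 probe set at rank 60.7 and 1 at the floor in both pools. Nrp2 ranked 28.1 and was not kept.

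Among the ephrins, 11 of 17 probe sets and 6 of 8 genes were kept. Efnb3, a transmembrane ephrin that is present in myelin, ranked 94.5 and 83.1 on its 2 probe sets. Efna3, a membrane-anchored ephrin, was kept on each design, with ranks of 85.1 on A, 76.3 on B and 75.9 on C. Efna4 and Efnb2 were not kept. Eph receptors were kept less fully, with 8 of 19 probe sets and 7 of 12 genes. Ephb1 ranked 93.3, Epha5 87.0 and Epha7 75.5 on their kept probe sets. The other probe sets of Epha5 and Epha7, all on design A, ranked between 1.82 and 32.1. Epha1, Epha3, Epha4, Epha6 and Ephb3 were not kept, Ephb3 only just, at rank 49.9.

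Unc5b, a netrin receptor also found in blood vessels, held the highest rank of all members, 95.5 on design B. Its other probe sets ranked 93.4 and 51.7. Unc5a ranked 89.4 and Unc5c 63.8, while Dcc, the attractive netrin receptor, ranked 49.3 and 17.9 and was not kept. Ntn1 was the single kept netrin, at 72.5 on 1 of its 2 probe sets, and Ntn3 and Ntn4 were not kept. Slit1 ranked 72.0 and Slit3 53.4, and Slit2 was not kept. Of the Robos, Robo2 ranked 52.8 and Robo4, a receptor of blood vessel cells, 57.9, while Robo1 and Robo3 were not kept. Outside the families, Unc50 ranked 92.1 and Plxna4os1 33.7.

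**Figure D1:**
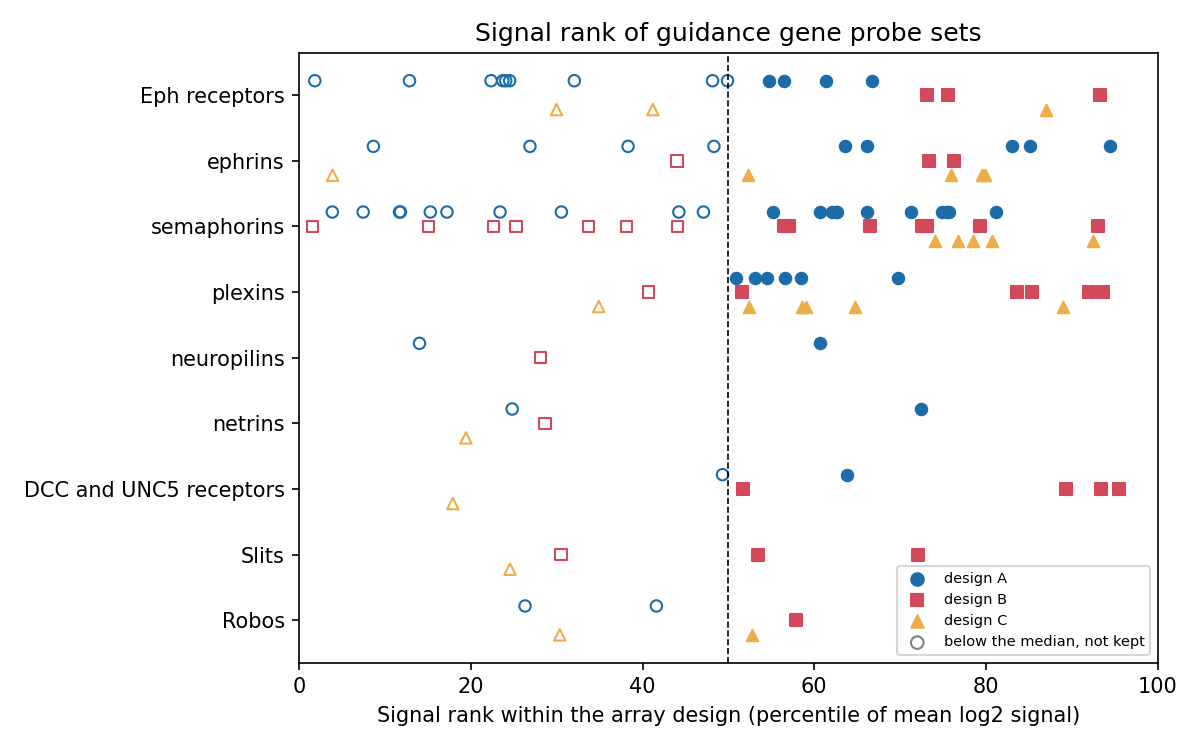
Signal rank of the probe sets of each subfamily. The horizontal axis is the percentile of mean log2 signal within the array design, each point is 1 probe set, colour and shape mark designs A, B and C, filled points were kept and open points were not, and the dashed line is the median of the design. Plexins lie mostly above the line, with 16 of 18 probe sets kept, while 11 of 19 Eph receptor probe sets lie below it.

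The second question was whether guidance genes differed between the paired and unpaired pools. None of the 71 kept probe sets was past 1.5-fold, a log2 difference of 0.58, in either direction. Over all 18351 kept probe sets, 0.349% were past 1.5-fold higher in the paired pool and 0.332% lower. At 1.2-fold, a threshold chosen after seeing the data, 4 members were higher and 5 lower, or 5.63% and 7.04% of the kept members, against 8.03% and 8.33% of all kept probe sets. The counts among members were thus near the background at both thresholds. The median paired minus unpaired log2 signal of the members was -0.046, with 28 probe sets above 0 and 43 below, and the median of all kept probe sets was 0 by scaling. The SD was 0.19 over the members and 0.19 over all kept probe sets.

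The largest differences were in Sema4d and the Slits, repellent ligands that bind Robo receptors. Slit1 (probe set 105844_at, design B) gave 5.74 unpaired and 5.19 paired on the log2 scale, a difference of -0.55 or 1.46-fold lower. Slit3 (163457_f_at, design B) had 4.78 and 4.22, a difference of -0.56 or 1.47-fold lower. Both kept Slit probe sets were therefore lower in the paired pool by a similar amount. The paired signal of Slit3 lay under the lowest kept mean signal of design B, 4.32, so its unpaired signal carried it past the filter. With the floor at the design median, the Slit3 difference was -0.45. Of all kept probe sets of design B, Slit1 lay at percentile 0.49 and Slit3 at percentile 0.41 of the differences. The Slit3 probe set carries a suffix that marks less specific probes, and neither gene had another probe set. Slit2, below the signal filter, had 3.38 and 3.40 on design B. On design C it had 2.29 in the unpaired pool and lay at the floor of 2.25 in the paired pool.

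Of the Robo receptors, 2 probe sets were kept. Robo2 had log2 signals of 3.20 unpaired and 3.11 paired, a difference of -0.087. Robo4 had 4.73 in both, a difference of 0.0050. Robo1 and Robo3, a receptor of commissural neurons in the hindbrain, lay below the signal filter. Robo1 had 4.31 and 4.24 on design A. On design C it had 2.69 unpaired and lay at the floor of 2.25 paired, a difference of -0.44 that the floor limits. Robo3 lay at the floor of 3.28 unpaired and had 3.52 paired on design A, a difference of 0.24 limited in the same way.

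Sema4d had the largest single difference, on design C (138086_f_at), with 6.76 unpaired and 6.19 paired. The difference was -0.58, or 1.49-fold lower, just inside the threshold, and this probe set is also suffixed. With no scaling it was the 1 member past 1.5-fold. The other Sema4d probe set (160836_at, design A) had 6.13 and 6.18, a difference of 0.045. The gene was thus lower on 1 of its 2 probe sets only. Its receptor Plxnb1 gave 6.22 unpaired and 6.21 paired, 7.01 and 6.92 on design B, and 3.88 and 3.82 on design C. These differences were -0.0080, -0.092 and -0.054, each smaller than the SD of all kept probe sets.

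**Figure D2:**
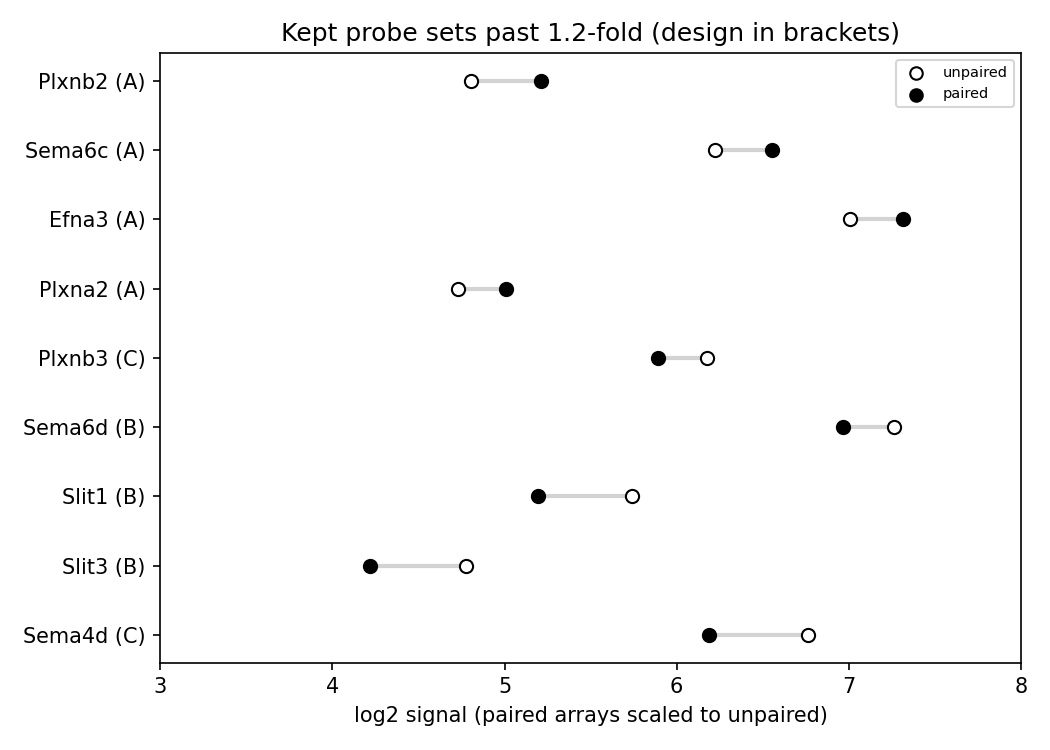
Log2 signals of the 9 kept probe sets past 1.2-fold between the pools, a limit chosen after seeing the data. The horizontal axis is log2 signal, with open circles for the unpaired and filled circles for the paired pool, and the design is in brackets after the gene. The 4 higher probe sets are all on design A, and the 5 lower ones are on designs B and C. Those of Plxnb2, Plxna2 and Slit3 lay under the signal filter in the pool where they were lower.

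The direction of the differences went with the array design. On design A 20 of 30 kept members were higher in the paired pool, with a median of 0.088. On design B 6 of 25 were higher, with a median of -0.096, and on design C 2 of 16, with a median of -0.090. Of all kept probe sets, 50% were above 0 on design A, 50% on design B and 50% on design C, where scaling sets the median to 0. The members' counts thus lay above the background on design A and below it on designs B and C. No test of this split is given, since the probe sets of a design share 1 pair of arrays. The split was not among the planned results, and its cause was not tested.

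The split was present under each scaling tried. With no scaling 20, 5 and 2 members were above 0 on designs A, B and C, with quantile scaling 21, 7 and 2, and with loess scaling 20, 5 and 2. Without suffixed probe sets 19 of 28, 6 of 23 and 2 of 12 were above 0. On design A the differences of all probe sets depended on signal. Those of rank 50 to 60 had a median of 0.046 and those of rank 90 to 100 had -0.039, and 8 of the 30 members lay in the lower of these bands. After loess scaling the members' median on design A was 0.071.

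Plexins showed the split most plainly. All 6 kept plexin probe sets of design A were higher in the paired pool, with a median of 0.18. Those with the largest differences, 0.41 for Plxnb2 and 0.28 for Plxna2, passed the signal filter only through their paired signal. All 5 kept plexin probe sets of design B and all 5 of design C were lower, with medians of -0.079 and -0.10. Other subfamilies with kept probe sets on each design showed it less fully or not at all. Semaphorins had 6 of 11, 1 of 8 and 2 of 5 above 0 on designs A, B and C. Ephrins had 4 of 5, 1 of 2 and 0 of 4, and Eph receptors 2 of 4, 2 of 3 and 0 of 1. Plxnb2, a receptor that acts in granule cell precursors, lay on design A alone. Its probe set 96464_at had 4.80 unpaired and 5.21 paired, a difference of 0.41 or 1.33-fold, and 160311_at had 5.95 and 6.16, a difference of 0.21. These were both higher, and 0.41 was the largest positive difference among the kept members. The unpaired signal of 96464_at lay under the lowest kept mean signal of design A, 4.82, so its paired signal carried it past the filter.

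Plxna2, a receptor for Sema6a, had a kept probe set on each design. The log2 signals were 4.73 unpaired and 5.01 paired on design A, 4.44 and 4.36 on design B, and 3.56 and 3.45 on design C. The difference was 0.28 on A, -0.079 on B and -0.10 on C, so design A alone was higher. Probe sets of Plxna2 below the signal filter had -0.41 on design B and -0.20 on design C. The gene's mean was 0.033 over the kept probe sets and -0.10 with no filter. On design A its unpaired signal lay under the lowest kept mean signal, 4.82, and its paired signal carried it past the filter. Plxna3 had 5.26 and 5.41 on design A, a difference of 0.14, and 7.21 and 7.13 on design B, a difference of -0.079. Plxna1 had 0.076 on design A and -0.15 on design C.

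Other plexins were read on a single design. Plxnd1, the Sema3e receptor of blood vessels, had 5.05 unpaired and 5.15 paired on design A, a difference of 0.097. Plxnb3, a receptor for Sema5a, had 6.18 and 5.89 on design C, a difference of -0.28. Plxna4 had -0.097 on design B, and Plxnc1, which binds Sema7a, -0.092 on design C.

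**Figure D3:**
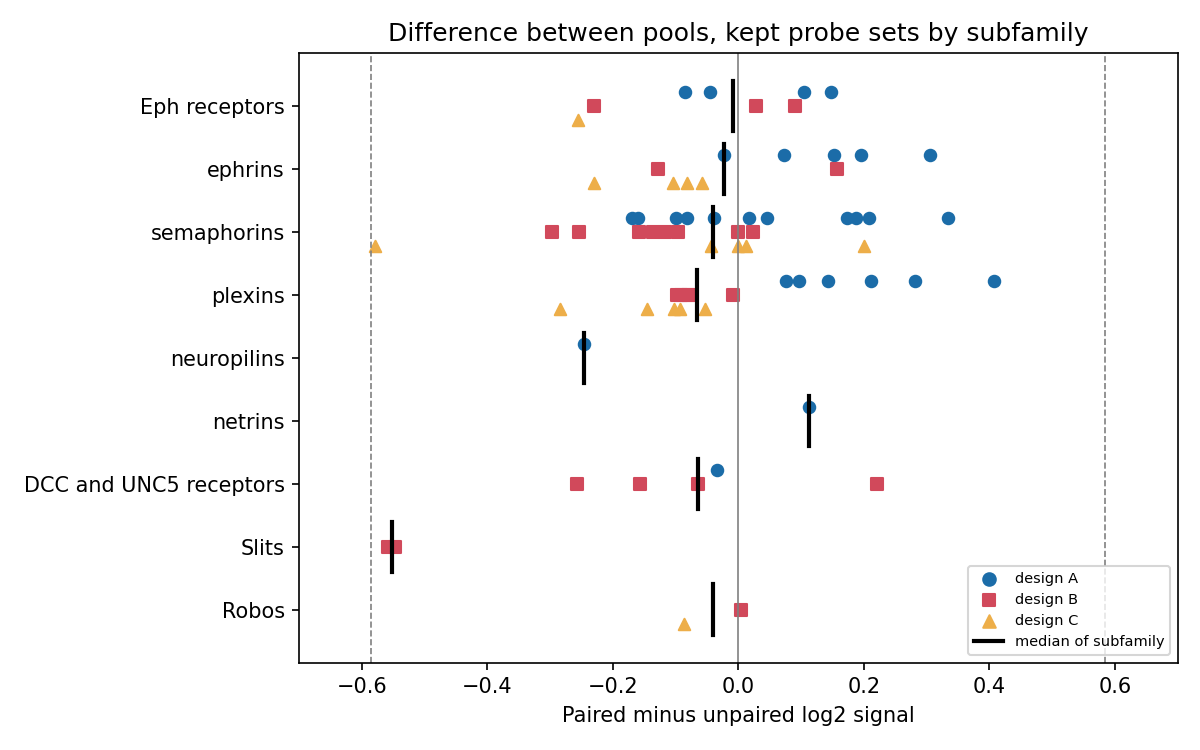
Difference between the pools for the kept probe sets of each subfamily. The horizontal axis is paired minus unpaired log2 signal, each point is 1 probe set coloured by design, black bars are subfamily medians, the solid line is 0 and the dashed lines are 1.5-fold in either direction. No point lies past a dashed line, and the 6 plexin points of design A lie above 0 while the 10 of designs B and C lie below it. Of the 6, those of Plxna2 and of Plxnb2 (96464_at) passed the signal filter only through their paired signal.

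Semaphorins had 9 kept probe sets above 0 and 15 below, with a median of -0.041. Sema6c (160700_i_at), a transmembrane semaphorin read by a suffixed probe set, had 6.22 unpaired and 6.56 paired on design A, a difference of 0.33. Sema6d, another ligand of the plexin A receptors, had 5.48 and 5.69 on design A, a difference of 0.21, and 7.26 and 6.96 on design B, a difference of -0.30. The Sema6d probe set of higher rank, that of design B, was thus lower in the paired pool, and that of design A was higher. Sema6a had 5.51 and 5.70 on design A, a difference of 0.19. On design B its kept probe sets had 5.66 and 5.40, a difference of -0.25, and 4.73 and 4.59, a difference of -0.14.

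Several semaphorins gave values near 0 or in 1 direction. Sema7a, a membrane-anchored semaphorin, was lower on both probe sets, with -0.16 and -0.083 on design A. Sema3d was also lower on both of its kept ones, with -0.12 on design B and -0.044 on design C. Sema4g had -0.16 on design B and 0.013 and -0.00060 on design C. Sema5a, a transmembrane semaphorin, had 4.44 unpaired and 4.64 paired on design C, a difference of 0.20. It was the larger of the 2 positive differences among the members of that design. Sema5b had -0.038 and -0.0010. Among the rest, the differences were 0.17 for Sema4a, -0.17 for Sema6b, -0.10 for Sema4b, -0.096 for Sema3c, 0.024 for Sema4c and 0.017 for Sema4f.

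Ephrins had 5 kept probe sets above 0 and 6 below, with a median of -0.022. Efna3 had 7.01 unpaired and 7.31 paired on design A, 5.65 and 5.81 on design B, and 4.70 and 4.64 on design C. The differences were 0.31, 0.16 and -0.059, higher on 2 of the 3 designs. Efna5, a ligand of topographic maps, had 5.12 and 4.89 on design C, a difference of -0.23. A probe set of it on design B below the signal filter had 4.22 and 3.87. Efna2 had 5.73 and 5.93, a difference of 0.20. Efnb3 had -0.022 on its probe set of rank 94.5 and 0.15 on the other. Efnb1 had 0.073 on design A and -0.13 on design B, and Efna1 had -0.083 and -0.10 on design C.

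Eph receptors had 4 kept probe sets above 0 and 4 below, with a median of -0.0091. Epha5, a receptor for the A-class ephrins, had 5.93 unpaired and 5.67 paired on design C, a difference of -0.26. Epha7, of the same class, had 5.79 and 5.56 on design B, a difference of -0.23. These were the lowest of the receptors of this family, and they were read on designs C and B, where most kept members were lower. Epha2 was highest, with 5.15 and 5.29 on design A, a difference of 0.15. Ephb6, which lacks kinase activity, had 0.10 and -0.084 on 2 probe sets of design A. The differences were 0.090 for Epha10, -0.046 for Epha8 and 0.028 for Ephb1.

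Netrin receptors had 1 kept probe set above 0 and 4 below, with a median of -0.064. The Unc5b probe sets, all on design B, had 7.45 unpaired and 7.39 paired, 7.04 and 7.26, and 4.54 and 4.28. Their differences were -0.064, 0.22 and -0.26, so the readings of this gene spanned both directions within a single design. The last of these probe sets had a paired signal under the lowest kept mean signal of design B, 4.32. Unc5a had 6.76 and 6.60, a difference of -0.16, and Unc5c, a receptor that sets the border of the cerebellum in development, had 5.71 and 5.67, a difference of -0.034. Dcc lay just below the signal filter on design A, with 4.95 and 4.60, a difference of -0.36 and the largest in size of this subfamily. Ntn1 had 6.17 and 6.28, a difference of 0.11. Nrp1 had 5.61 and 5.36, a difference of -0.25. Unc50 had 7.94 and 8.02, a difference of 0.079.

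How far probe sets of the same gene agreed was examined next. Of the 18 member genes with 2 or more kept probe sets, 6 had all of them in 1 direction, or 33.3%, against 42.1% of 3437 such genes on the arrays. The 6 were Plxnb2, higher, and Plxnb1, Efna1, Sema3d, Sema5b and Sema7a, lower. Of the members, 9 had kept probe sets on design A and on another design. In 8 of the 9 the mean difference on design A was above that on designs B and C, Sema5b being the exception, and in 7 it was above 0 on A and below 0 on the others. Of all 1414 such genes, 51.6% had the higher value on design A and 25.2% were above 0 on A and below 0 on the others. The median gap was 0.26 for the members and 0.0092 for all such genes. These shares do not measure the spread between mice.

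**Figure D4:**
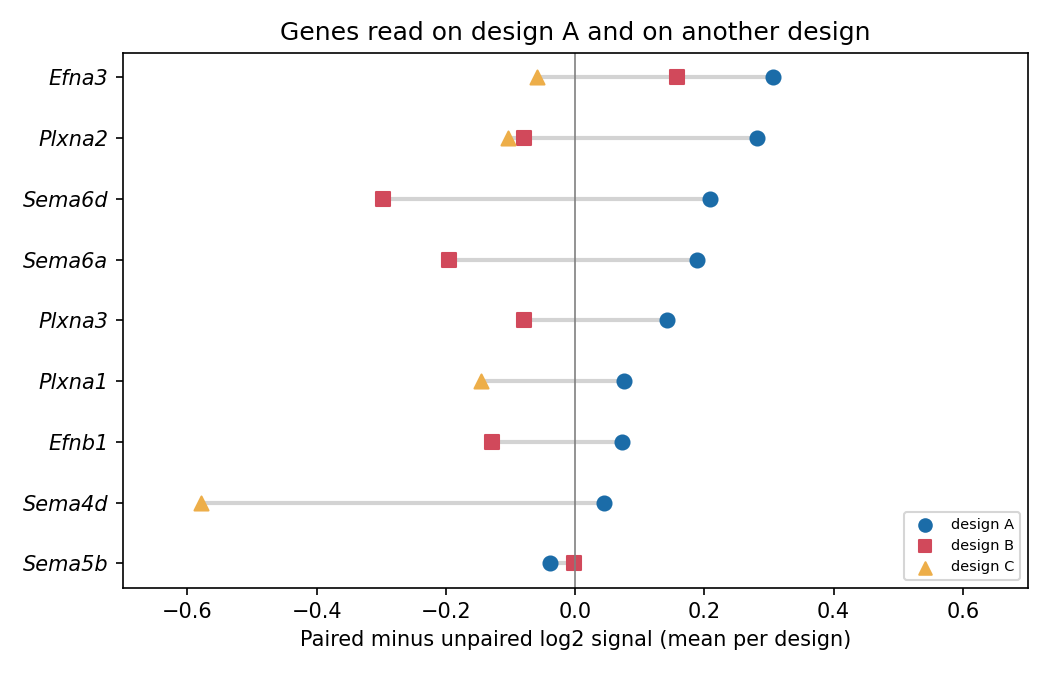
Difference between the pools for the 9 member genes with kept probe sets on design A and on another design. The horizontal axis is paired minus unpaired log2 signal, averaged over a gene's kept probe sets on a design, and colour and shape mark the design. The design A point is the rightmost in 8 of the 9 genes.

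Genes that act with these ligands and receptors were compared in 3 lists, by the mean difference over a gene's kept probe sets. Of the effectors inside the cell, such as kinases and collapsin response proteins, 36 of 51 were measured. There 17 were above 0 and 19 below, with a median of -0.016 and no gene mean past 1.5-fold. Single probe sets did pass it. Those of Chn2 ranged from -0.45 to 0.67, and the lowest of Cdk5r1 was -0.62. The largest gene means were Evl, an actin regulator, at -0.29 over 2 probe sets and the kinase Fyn at -0.29. Of the other guidance cues, co-receptors and axonal adhesion genes, 35 of 47 were measured, with 13 above 0, 22 below and a median of -0.059. The adhesion gene Alcam had -0.51 and Slitrk5, a synaptic adhesion gene, -0.47 over 3 probe sets that ranged from -0.71 to -0.25. None of these genes was past 1.5-fold by its mean. Of this list's kept probe sets, 9 of 17 were above 0 on A, 7 of 24 on B and 6 of 15 on C. The medians were 0.0060, -0.076 and -0.061. The effectors had 13 of 26, 19 of 31 and 4 of 8 above 0 on designs A, B and C. Of the myelin inhibitors and their receptors, 8 of 11 were measured, 4 in each direction, with a median of -0.013. Rtn4, which encodes Nogo, had -0.16 and Rtn4rl1 0.16.

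Over all 10581 measured genes the median was -0.0039, with 5188 above 0. Over the 47 member genes it was -0.035, with 19 above 0. By role, ligands had 15 of 38 kept probe sets above 0 and a median of -0.041, and receptors 12 of 32 and -0.059. Ligands and receptors each showed the split by design, with medians of 0.073 and 0.10 on design A, -0.13 and -0.079 on design B, and -0.059 and -0.10 on design C. Ligands and receptors thus did not stand on different sides.

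Markers of the cells that the dissection could hold were compared as lists, with no test. In pooled tissue, fewer cells of a type and less RNA per cell cannot be told apart. Of 14 listed markers of projection neurons of the nuclei, 11 were on the arrays and 8 were measured. Among the 8, the glutamate transporter gene Slc17a6 and the neurofilament gene Nefl each ranked 99.9 on their brightest probe sets. Tbr1, Meis2, Lhx9, Lmx1a, Spp1 and Slc6a5 had no kept probe set, and the listed genes missing from the arrays are among them. Granule cell markers were above 0 in 10 of 11 measured genes of 16 listed, with a median of 0.27, led by Gabra6 at 0.89 and Fat2 at 0.47. Mean log2 signal of that list was 6.68 unpaired and 7.04 paired on design A, 4.52 and 4.57 on B, and 4.80 and 5.02 on C. Design B had a single kept probe set of this list, with a difference of 0.051, while designs A and C had 8 each. Purkinje cell markers were above 0 in 7 of 12 genes of 17 listed, with a median of 0.042, ranging from -0.59 for Kitl to 0.48 for Shisa6.

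Oligodendrocyte markers were below 0 in 11 of 14 measured genes of 18 listed, with a median of -0.081, led by Sox10 at -0.27 and Gsn at -0.25. Their mean log2 signal was 8.14 unpaired and 8.05 paired on design A, 8.60 and 8.57 on B, and 4.93 and 4.69 on C. Their median probe set difference was -0.070, -0.055 and -0.27 on these designs. For astrocytes and Bergmann glia the median was -0.093 over 14 of 15 genes, and -0.067, 0.15 and -0.22 on designs A, B and C, with 5 genes above 0 and 9 below. S100b had -0.33 and Timp4 -0.32, against 0.30 for Aqp4 and 0.29 for Slc1a3. Endothelial and mural markers had 0.016 over 7 of 14 genes, with Cldn5 at -0.37 and Pecam1 at 0.23. The part of these values in those of the guidance genes was not tested.

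Smaller marker lists gave medians of -0.050 over 8 of 14 genes for projection neurons of the nuclei, led by Irx3 at -0.33 and Slc17a6 at 0.25 over 3 probe sets that ranged from -0.083 to 0.85, and 0.19 over 3 of 8 for cortical interneurons, with Sst at 0.21 and Nxph1 at 0.19. Oligodendrocyte precursors had -0.084 over 7 of 9, with Olig2 at 0.31 and Ptprz1 at -0.28. Microglia had 0.042 over 7 of 12, with Cx3cr1 at 0.29 and C1qc at 0.16. Choroid plexus and ependyma had 0.11 over 5 of 9, with Ttr at -0.45 and Calml4 at 0.19. Meninges and fibroblasts had -0.034 over 8 of 10, of which 3 were above 0 and 5 below, with Fmod at 0.46, Islr at 0.19 and Col1a1 at -0.18. Brainstem had 0.055 over 3 of 9, with Hoxb5 at 0.44 and Tph2 at -0.39, and blood -0.098 over 3 of 8, with Hbb-b2 at -0.44 and Alas2 at 0.14.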

How the data were processed

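RNA from 6 samples was measured on single-colour arrays with biotin-labelled cRNA, per the labels' protocols. Each deposited value was taken to be a probe set's log2 signal on 1 array. Base 2 is an inference from the range of 1.40 to 13.68, and how the authors summarized and normalized the signals is not given in the sources used here. After 198 control probe sets were set aside, 29137 probe sets carried 1 gene symbol in the annotation of the platform, 718 several and 6846 none. For each design a constant was taken off the paired array to bring to 0 the median log2 difference of its probe sets no dimmer than the median. The constants were -0.010, -0.0084 and -0.0067 on designs A, B and C. Lower signals were raised to a floor, the 25th percentile of their design. Kept were the 18351 probe sets with a mean signal no lower than the median of their design, and none was at the floor. The filter used the mean of both arrays, so a kept probe set could lie under the cut in 1 pool. Each design was treated on its own, and no test across samples was possible with 1 array per group and design.

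Median log2 signals were 4.79 unpaired and 4.83 paired on design A, 4.32 and 4.32 on B, and 3.03 and 3.02 on C. The members, lists and tests were chosen with earlier results of these data known. Any member could be named. Values were given for members past 1.5-fold, for the highest ranked kept probe set and the 2 largest differences per direction of each subfamily, for members with 3 or more kept probe sets or in subfamilies of up to 4 kept genes, and for the 2 largest gene values of each list. Further genes of the lists were chosen with their values in view. Lists were matched through symbols brought up to date with the RefSeq gene table of GRCm38.p6. The steps were tested on simulated data. Python 3.11.15, numpy 2.4.6, pandas 2.3.3 and statsmodels 0.14.6 (loess, span 0.3) were used. Alternatives were other scalings, floors and signal filters, leaving out suffixed probe sets, the brightest probe set per gene, probe sets with several symbols, updated symbols and each design alone. Leaving out Unc50 and Plxna4os1 and the 1.2-fold count were added after seeing the data. The direction counts by design under each scaling were also added. The comparison of genes across designs, the split by role and the medians by signal rank were not among the planned results either.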

Additional observations from a re-analysis of the deposited data

How the results depend on the processing

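With no replicates, a median or gene value was taken to move when it changed by more than the SD of all kept log2 differences, 0.19, divided by the square root of its number of probe sets. Of 168 comparisons of the counts, the overall median and the subfamily medians with an alternative, 149 did not move. Of 594 of gene values, 575 did not. These counts include alternatives that left every member value unchanged, namely no floor, probe sets with several symbols and updated symbols. A gene with 1 kept probe set also could not move with the brightest probe set per gene. Neither could it move without suffixed probe sets, at the 75th percentile or on a design alone, where it either stayed or dropped out. Leaving out Unc50 and Plxna4os1 could not change the value of any other gene. The counts therefore overstate how stable the values were. With no scaling 1 member, Sema4d on design C, passed 1.5-fold lower. The members' median was -0.0033 over all 120 probe sets unfiltered, -0.072 for those no lower in signal than the 75th percentile of their design, -0.079 with the brightest probe set per gene, 0.088 on design A alone, -0.096 on B and -0.090 on C. Semaphorins had 0 with no filter, -0.083 at the 75th percentile, 0.017 on A, -0.13 on B and -0.00060 on C. Plexins had 0.18 on A. Ephrins had 0.15 on A and -0.093 on C, and Eph receptors -0.23 at the 75th percentile and -0.26 on C. With no filter neuropilins had 0 and Slits -0.30. Of the genes, Sema4d turned to 0.045 without suffixed probe sets and on design A alone, and Efna3 to -0.059 on C. No paired analysis was possible because each group had 1 array per design. With no filter, 9 of 41 semaphorin and 1 of 3 neuropilin probe sets lay at the floor in both pools, where the difference is 0 by construction. The cause of these changes was not tested beyond the probe sets that each alternative removes or adds.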
